A study of Mus musculus with 6 samples.

Results

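The signalling chain from phosphoinositide 3-kinase (PI3K) through AKT to mTOR and the FOXO factors, with the energy sensor AMPK, was followed through 40 genes chosen by symbol for their place in it, from catalytic subunits to downstream targets. All 40 were present among the 22609 gene rows of the count tables, and all 40 had enough reads to be tested. The cells were primary hepatocytes, isolated from the liver of male wild-type C57BL/6 mice at 4 months of age. They received PBS or LRG1 protein at 20 µg/mL for 16 h, with 3 libraries in each group, and RNA was read after poly(A) selection. LRG1 is a secreted glycoprotein rich in leucine repeats, which the series title ties to fatty liver and insulin resistance. No label says whether the libraries of a group came from different mice or cultures, so p-values measure the spread between these libraries, which may be technical.

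In hepatocytes, insulin acts through PI3K, which makes a membrane lipid that brings the kinases PDK1 and AKT together. Active AKT holds FOXO factors out of the nucleus, restrains GSK3 and the TSC complex, and thereby lets RHEB switch on mTORC1, the growth-promoting complex of mTOR and raptor. AMPK, activated by LKB1 when energy is short, works against mTORC1 and against lipid synthesis. These proteins are controlled mainly by phosphorylation, which mRNA levels do not show.

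The libraries held 18625748 to 23036332 reads in genes. Levels are given as CPM, the usual depth-scaled read count, after TMM scaling. Across tested genes the Pearson correlation of log2 CPM was 0.995 to 0.996 between libraries within a treatment and 0.958 to 0.962 across treatments. The summed CPM of 5 hepatocyte markers was 20544 to 21925 with PBS and 19970 to 20841 with LRG1, most of it Alb. Of these 5, Apoa1 was 1.54-fold and Hnf4a 1.23-fold lower with LRG1. Markers of other liver cells were low next to the hepatocyte markers, apart from Cd68, Sox9 and Spp1, which are not restricted to macrophages and bile duct cells. The summed level of 7 stellate cell markers was 4.19 to 4.66 CPM with PBS and 3.71 to 4.08 CPM with LRG1, and that of 7 endothelial markers 40.1 to 42.4 and 33.8 to 37.9 CPM. For 8 macrophage markers the sums were 218 to 263 and 179 to 204 CPM, nearly all of it Cd68, and for 6 bile duct markers 4446 to 4630 and 4325 to 4643 CPM, nearly all of it Spp1. Each marker had a count in at least 1 library. Of the tested markers, 2 of 5 hepatocyte, 1 of 3 stellate and 2 of 6 endothelial genes were lower and none higher, while 1 of 6 macrophage genes and 1 of 3 bile duct genes went each way. The part of these cells in the results was not tested, and in bulk RNA fewer cells of a type and less RNA per cell cannot be told apart.

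The components, chosen with earlier results of these data known, differed little as a set. Of the 40, 8 were higher with LRG1 and 7 lower at an adjusted p below 0.05 (edgeR's quasi-likelihood test, with the Benjamini-Hochberg method applied to the 12301 tested genes together), and 25 did not pass. The 15 called components are 37.5% of the 40. Over all tested genes 51.4% were called, 25.5% higher and 25.8% lower, against 20% higher and 17.5% lower among the components. The 3 LRG1 values lay wholly above or below the 3 PBS values for 17 components, or 42.5%, where 57.6% of all tested genes did so. Deptor alone was called with a difference of at least 1.5-fold, which is 2.5% of the components, against 18.1% of all tested genes. The median absolute log2 fold change was 0.11 for the components and 0.20 for all tested genes, and the signed medians were 0.0057 and 0.0093.

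**Figure D1:**
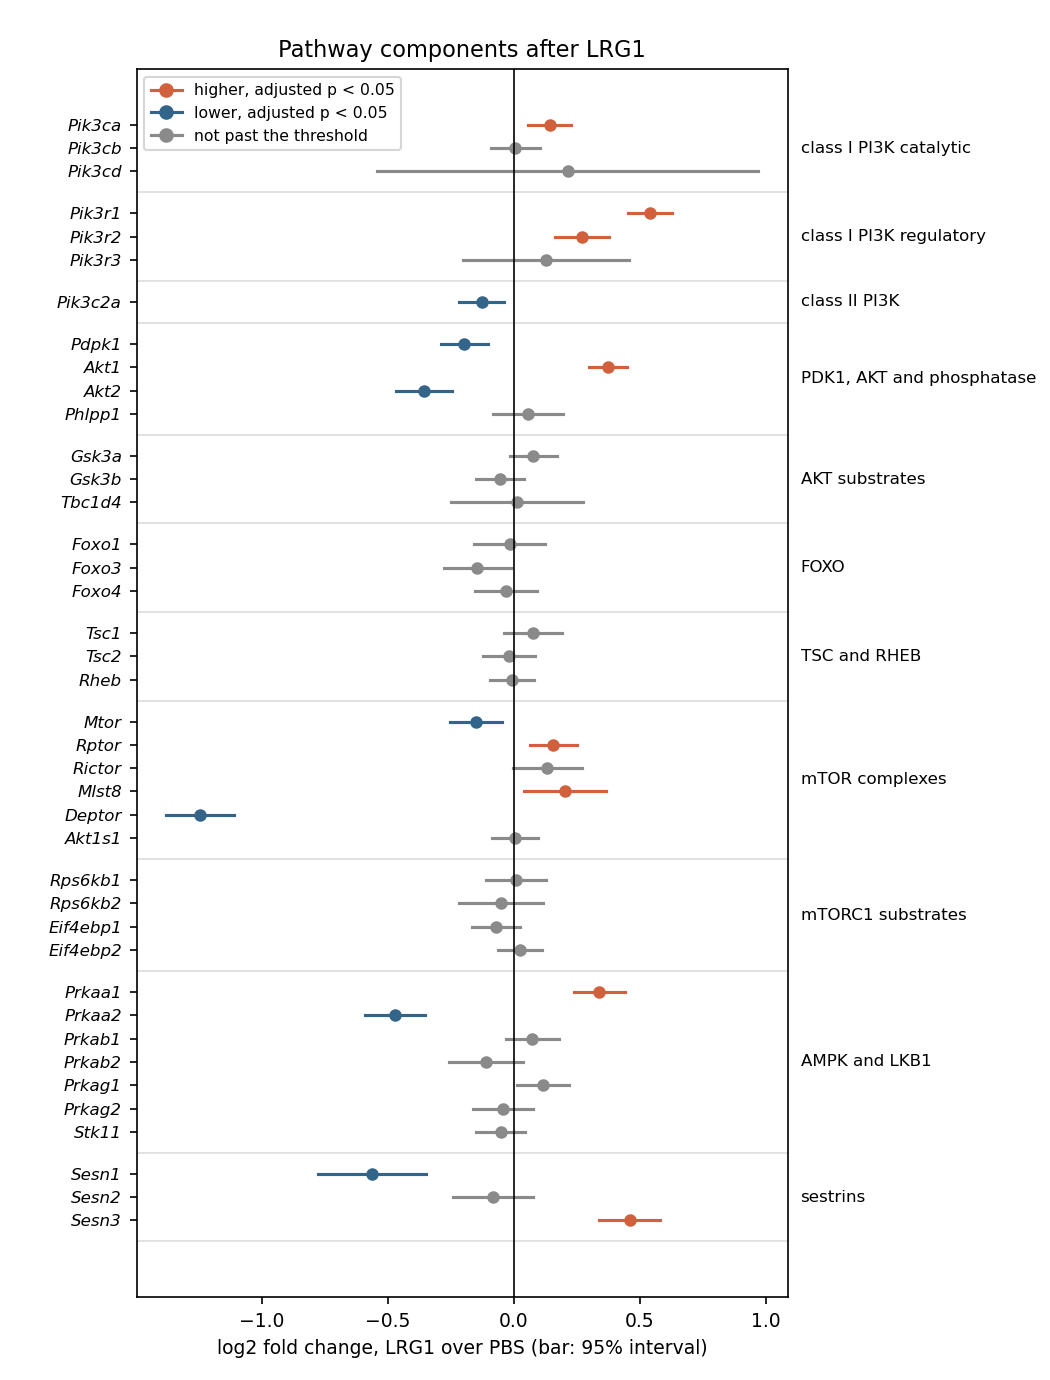
Log2 fold change, LRG1 over PBS, of each component with its 95% interval, grouped by role. Called genes are orange (8 higher) or blue (7 lower), the 25 not past the threshold are grey, and Deptor at -1.24 lies farthest from 0.

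**Figure D2:**
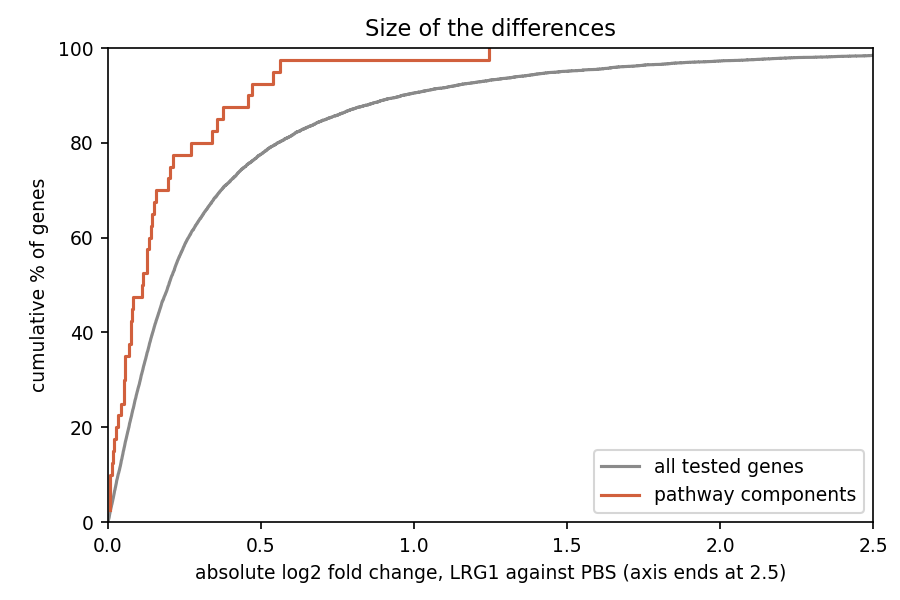
Cumulative percentage of genes against absolute log2 fold change for all 12301 tested genes (grey) and the 40 components (orange). The orange curve lies to the left of the grey one over most of the range, with medians of 0.11 and 0.20.

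Of the 15 called components, 10 kept their call and direction under all 15 alternative analyses. They were Pik3r1, Pik3r2, Akt1, Prkaa1 and Sesn3, all higher, and Pdpk1, Akt2, Prkaa2, Sesn1 and Deptor, all lower. The calls of Pik3ca, Pik3c2a, Mtor, Rptor and Mlst8 were lost under at least 1 alternative. The 95% interval of the difference stayed within 1.25-fold in either direction for 23 of the 25 components that did not pass, a limit chosen after the values were seen. It was wider only for Pik3cd and Pik3r3, the least abundant PI3K genes.

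The first step of the chain is the class I PI3K enzyme, a dimer of a catalytic subunit that makes the lipid signal and a regulatory subunit that binds insulin receptor substrates. The regulatory side rose. Pik3r1, the main regulatory subunit gene in liver, had 237, 216 and 219.5 CPM in PBS replicates 1 to 3 and 334, 313 and 332 CPM in LRG1 replicates 1 to 3. Every LRG1 library was above every PBS library, and the difference was 1.45-fold (log2 fold change 0.54, SE 0.042, adjusted p = 1.55e-10 by edgeR). Pik3r2, a second regulatory subunit, had 50.5, 51.2 and 55.4 CPM with PBS and 63.1, 61.5 and 64.9 CPM with LRG1, again without overlap (1.21-fold, log2 fold change 0.27, SE 0.052, edgeR adjusted p = 0.000126). Pik3r3 was scarce, with 4.77 ± 0.379 CPM in PBS and 5.24 ± 1.26 CPM in LRG1 libraries, and did not pass (95% interval of the log2 fold change -0.20 to 0.46).

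The catalytic subunits moved less. Pik3ca had 99.9, 97.1 and 99.2 CPM with PBS and 108, 109.6 and 109.2 CPM with LRG1. The groups did not overlap, but the difference was 1.10-fold (log2 fold change 0.14, SE 0.041, edgeR adjusted p = 0.00584). It was lost with trends on GC content and transcript length removed (log2 fold change 0.081, adjusted p = 0.107). These trends were fitted to the treatment differences themselves. Pik3cb had 74.9, 74.1 and 74.9 CPM with PBS and 72.9, 73.6 and 78.4 CPM with LRG1, overlapping values with an interval of -0.09 to 0.10. Pik3cd, the form typical of white blood cells, was near the detection limit at 0.371 to 0.759 CPM with PBS and 0.475 to 0.996 CPM with LRG1.

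Divided by transcript length, the summed regulatory subunits came to 50.3, 47.4 and 49.2 CPM per kb with PBS and 67.7, 64.3 and 68.5 CPM per kb with LRG1. The summed catalytic subunits came to 22.9, 22.5 and 22.8 CPM per kb and 23.6, 23.7 and 24.5 CPM per kb. The ratio of regulatory to catalytic mRNA was thus 2.16 ± 0.0426 with PBS and 2.79 ± 0.0812 with LRG1 (SD, n = 3), with no overlap between the groups. It is a description without a test, and the counts cover all transcripts of Pik3r1, which also encodes shorter regulatory subunits. Pik3c2a, a class II PI3K that acts on endosomes and is not part of this dimer, went from 207 ± 11.5 to 189.8 ± 5.35 CPM. Its groups overlapped, and its log2 fold change of -0.13 (edgeR adjusted p = 0.0162) no longer passed without PBS replicate 1 (adjusted p = 0.0577), PBS replicate 2 (0.0955) or LRG1 replicate 1 (0.0605). The class II genes Pik3c2b and Pik3c2g are not among the components and are named after their values were seen. Both were lower with the groups apart. Pik3c2b went from 11.6 ± 0.534 CPM with PBS to 7.46 ± 0.906 with LRG1 (log2 fold change -0.63, SE 0.11, edgeR adjusted p = 3.53e-05). Pik3c2g, scarce at 2.15 ± 0.445 and 1.14 ± 0.106 CPM, had a log2 fold change of -0.91 (SE 0.23, edgeR adjusted p = 0.00224).

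Next in the chain, the AKT genes moved in opposite directions. Akt1, the widely expressed form, had 249.7, 249.5 and 246 CPM with PBS and 326, 323 and 318 CPM with LRG1. The 2 groups lay far apart compared with their spread (1.30-fold, log2 fold change 0.37, SE 0.036, edgeR adjusted p = 6.58e-09). Akt2, the form linked most closely to insulin's control of glucose, had 57.2, 56.7 and 54.6 CPM with PBS and 45.7, 44.1 and 41.7 CPM with LRG1. Here all LRG1 libraries were below all PBS libraries (1.28-fold lower, log2 fold change -0.36, SE 0.053, edgeR adjusted p = 5.39e-06).

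On the scale of reads per length, Akt1 made up 88.2% ± 0.174 of the Akt1 and Akt2 pair with PBS and 92.5% ± 0.238 with LRG1 (SD, n = 3). The pair summed to 105 ± 1.03 CPM per kb with PBS and 129 ± 1.81 with LRG1, so the sum was 1.24-fold higher while Akt2 was lower. Pdpk1, the gene of PDK1, which phosphorylates AKT in its activation loop, had 86.8, 89.7 and 84.9 CPM with PBS and 75.8, 76.0 and 76.3 CPM with LRG1. It was 1.15-fold lower without overlap (log2 fold change -0.20, SE 0.044, edgeR adjusted p = 0.000716). Phlpp1, a phosphatase that switches AKT off, did not pass, with 30.2 to 35.0 CPM in PBS and 32.3 to 34.0 CPM in LRG1 libraries.

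None of the 3 AKT substrate genes in the set passed. Gsk3a and Gsk3b, the kinases that restrain glycogen synthase, had 92.5 ± 2.97 and 89.1 ± 3.96 CPM with PBS and 97.7 ± 3.23 and 85.8 ± 2.32 CPM with LRG1. Their intervals were -0.01 to 0.17 and -0.15 to 0.04 on the log2 scale. Gsk3b was called lower with GC and length trends removed (log2 fold change -0.12, adjusted p = 0.0324). Tbc1d4, a Rab regulator known from insulin-driven glucose uptake in muscle and fat, was low here at 5.87 to 7.49 CPM with PBS and 6.18 to 7.05 CPM with LRG1.

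The FOXO transcription factors, which drive gluconeogenic and stress genes when insulin is low, did not pass either. Foxo1 had 32.8, 29.8 and 32.4 CPM with PBS and 32.1, 32.9 and 28.8 CPM with LRG1, which overlap almost fully (95% interval -0.16 to 0.12). Foxo4 had 34.7 to 36.2 CPM with PBS and 33.6 to 36.3 CPM with LRG1. Foxo3 was the exception in its order, with 29.9, 29.5 and 29.7 CPM with PBS and 27.7, 27.0 and 25.8 CPM with LRG1. These groups did not overlap, but the edgeR adjusted p was 0.0626 (log2 fold change -0.15, SE 0.064). It passed after removal of GC and length trends (log2 fold change -0.25, adjusted p = 0.00241). Leaving out LRG1 replicate 1 also brought it past the threshold, at an adjusted p of 0.0490, and over all alternatives the adjusted p ran from 0.00241 to 0.171.

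**Figure D3:**
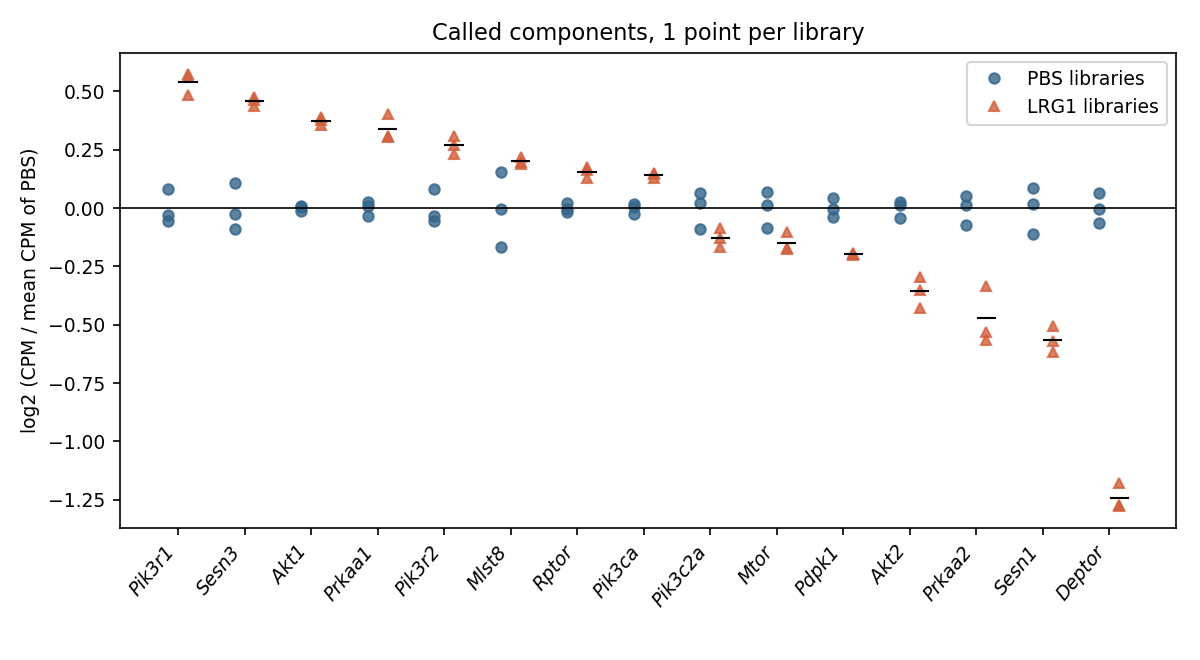
Log2 of each library's CPM over the mean CPM of the PBS group, for the 15 called components ordered by fold change. Circles are the PBS libraries, triangles the LRG1 libraries and short lines the LRG1 means. Only Pik3c2a shows an overlap between the groups.

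Between AKT and mTORC1 stands the TSC complex, which keeps the small GTPase RHEB inactive. Tsc1, Tsc2 and Rheb did not pass. Tsc1 had 54.2 to 60.5 CPM with PBS and 58.7 to 64.4 with LRG1, Tsc2 98.7 to 109 and 95.4 to 107, and Rheb 101 ± 1.38 and 100.3 ± 3.17. The intervals of their log2 fold changes all lay between -0.12 and 0.19. At an unadjusted edgeR p below 0.05, Foxo3 was the only component to pass among the AKT substrate, FOXO, TSC, RHEB and mTORC1 substrate genes. DESeq2 and limma-voom called none of these components. With GC and length trends removed Tsc2 was called lower (log2 fold change -0.13, adjusted p = 0.0358), and its exons overlap those of Pkd1 on the other strand.

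The mTOR complexes contained the component with the largest difference of the 40. Deptor, a protein that binds mTOR and inhibits it in both complexes, had 45.3, 43.5 and 47.5 CPM in PBS replicates 1 to 3 and 18.7, 18.8 and 20.1 CPM in LRG1 replicates 1 to 3. The highest LRG1 library was far below the lowest PBS library. The difference was 2.37-fold (log2 fold change -1.24, SE 0.065, 95% interval -1.38 to -1.11, edgeR adjusted p = 8.8e-14). Of all tested genes, 93.1% had a smaller absolute log2 fold change. Under the 15 alternatives the value ran from -1.31 to -1.21.

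Mtor itself, the kinase, had 80.1, 77.0 and 72.1 CPM with PBS and 71.1, 67.7 and 67.9 CPM with LRG1. The groups did not overlap but came close (log2 fold change -0.15, SE 0.049, edgeR adjusted p = 0.0139). The call was lost without PBS replicate 1 (adjusted p = 0.0899), LRG1 replicate 2 (0.0597) or LRG1 replicate 3 (0.0517). Per length, Deptor mRNA came to 0.567, 0.566 and 0.660 of the Mtor level with PBS and to 0.264, 0.278 and 0.296 with LRG1.

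Of the complex-specific subunits, Rptor, which encodes raptor of mTORC1, had 70.1, 69.5 and 71.4 CPM with PBS and 79.6, 78.8 and 76.9 CPM with LRG1, a log2 fold change of 0.16 with an SE of 0.045 (edgeR adjusted p = 0.00564). The groups were apart, yet the log2 fold change was 0.022 (adjusted p = 0.718) once GC and length trends were removed. Rictor, the defining subunit of mTORC2, had 47.0, 42.5 and 38.7 CPM with PBS and 45.1, 50.2 and 45.2 CPM with LRG1, with overlap and an edgeR adjusted p of 0.101. Without PBS replicate 1 it passed (log2 fold change 0.21, adjusted p = 0.0160). The ratio of Rptor to Rictor per length was 2.34 ± 0.252 with PBS and 2.37 ± 0.141 with LRG1.

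Mlst8, a subunit of both complexes, had 18.9, 21.1 and 23.6 CPM with PBS and 24.7, 24.3 and 24.2 CPM with LRG1, a log2 fold change of 0.20 with an SE of 0.078 (edgeR adjusted p = 0.0333). This was the least stable call of the set: it was lost under 7 of 15 alternatives, namely DESeq2 (adjusted p = 0.0739), the removal of GC and length trends (0.138), and the omission of PBS replicate 1 (0.210), PBS replicate 2 (0.0628), LRG1 replicate 1 (0.0760), LRG1 replicate 2 (0.0653) or LRG1 replicate 3 (0.0572). Akt1s1, the gene of PRAS40, an mTORC1 inhibitor that AKT phosphorylates, had 99.6, 92.8 and 97.4 CPM with PBS and 98.2, 99.2 and 93.4 CPM with LRG1 (interval -0.09 to 0.10).

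The 4 genes for mTORC1 substrates among the components did not pass. The S6 kinase genes Rps6kb1 and Rps6kb2 had 49.7 ± 2.73 and 17.4 ± 0.815 CPM with PBS and 50.0 ± 2.81 and 16.8 ± 0.802 CPM with LRG1. The translation repressor genes Eif4ebp1 and Eif4ebp2 had 286 ± 10.1 and 123 ± 3.87 CPM with PBS and 272 ± 20.4 and 125 ± 3.96 CPM with LRG1. Eif4ebp1 had the highest level per length of all components in PBS, at 143 CPM per kb, ahead of Akt1 at 92.4, and Pik3cd the lowest at 0.128. Without LRG1 replicate 1, in which it was highest of the 3 LRG1 libraries, Eif4ebp1 was called lower (log2 fold change -0.13, adjusted p = 0.0169).

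AMPK is a trimer of a catalytic alpha, a scaffolding beta and a nucleotide-binding gamma subunit, each encoded by several genes. Its 2 catalytic genes moved in opposite directions, with Prkaa1 ahead per length in both groups. Prkaa1, which encodes alpha1, had 56.9, 55.2 and 57.7 CPM with PBS and 70.0, 70.1 and 74.9 CPM with LRG1. All LRG1 libraries were above all PBS libraries (1.26-fold, log2 fold change 0.34, SE 0.049, edgeR adjusted p = 3.5e-06). Prkaa2, which encodes alpha2, had 82.4, 75.6 and 80.2 CPM with PBS and 55.0, 63.1 and 53.6 CPM with LRG1. All LRG1 libraries were below all PBS libraries (1.39-fold lower, log2 fold change -0.47, SE 0.057, edgeR adjusted p = 2.59e-07).

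Per length, the alpha1 gene accounted for 54.2 to 55.6% of the catalytic mRNA in PBS libraries and 65.6 to 70.5% in LRG1 libraries (means 55.0% and 68.2%, n = 3). In plain reads the means were 41.6% and 55.6%. The 95% Wilson interval of a library's share of reads reached at most 1.96 percentage points to either side, which covers counting error only. The sum of both genes was 22.6, 21.4 and 22.5 CPM per kb with PBS and 21.9, 23.0 and 22.8 CPM per kb with LRG1, values that overlap.

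**Figure D4:**
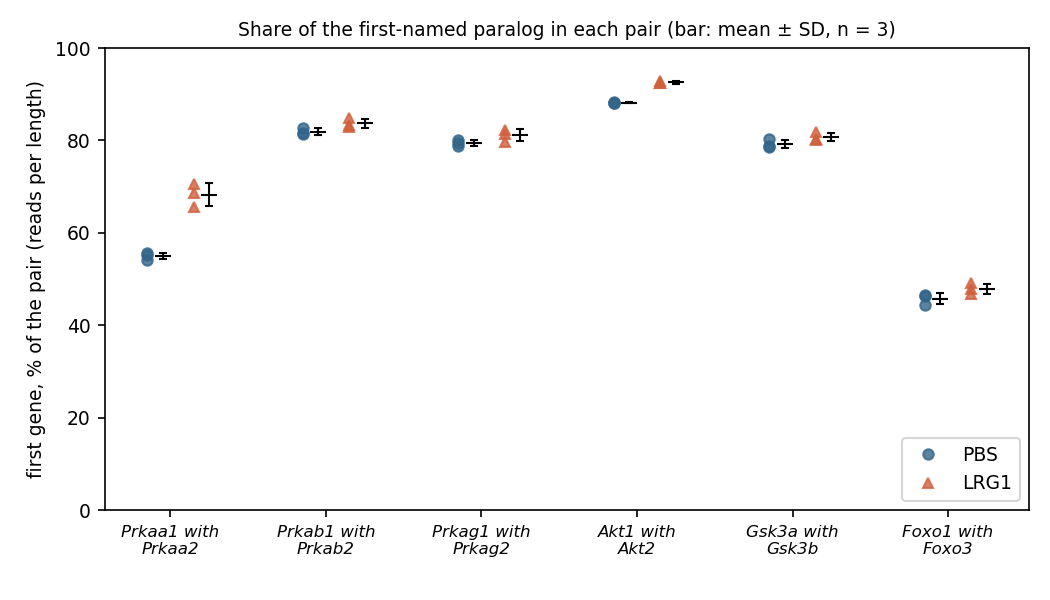
Share of the first-named gene in the reads per transcript length of 6 gene pairs, 1 point per library, with mean and SD. Prkaa1 moves from 55.0% with PBS to 68.2% with LRG1 and Akt1 from 88.2% to 92.5%, while in the other 4 pairs the means differ by less, as for Foxo1 with Foxo3 at 45.7% and 47.9%.

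The remaining AMPK genes among the components did not pass. Prkab1 had 51.1, 51.6 and 51.4 CPM with PBS and 56.0, 51.8 and 54.6 CPM with LRG1, and Prkab2 25.7, 27.9 and 28.3 CPM and 24.1, 24.7 and 27.0 CPM. Prkag1 had 75.7, 76.8 and 82.9 CPM with PBS and 80.3, 87.7 and 86.7 CPM with LRG1 (log2 fold change 0.11, edgeR adjusted p = 0.0576). It passed under 5 alternatives, with a log2 fold change of 0.12 to 0.17 in them: total-count scaling (adjusted p = 0.0305), no filter (0.0457), GC and length trends removed (0.00564), and without PBS replicate 3 (0.0201) or LRG1 replicate 1 (0.0219). Over all 15 the adjusted p ran from 0.00564 to 0.212.

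Prkag2 had 41.2, 39.8 and 41.7 CPM with PBS and 41.2, 40.2 and 37.6 CPM with LRG1. Stk11, the gene of the activating kinase LKB1, had 72.6, 70.8 and 75.6 CPM with PBS and 71.2, 69.4 and 70.7 CPM with LRG1. Its interval was -0.15 to 0.04, and with GC and length trends removed it was called lower (log2 fold change -0.12, adjusted p = 0.0378). The ratio of summed beta to summed alpha subunits per length was 1.36 ± 0.0543 with PBS and 1.37 ± 0.0737 with LRG1, and that of gamma to alpha 2.70 ± 0.111 and 2.80 ± 0.0284 (SD, n = 3).

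Sestrins are stress-induced proteins that restrain mTORC1 when leucine is scarce and favour AMPK. Sesn1, a p53 and FOXO target, had 10.9, 12.4 and 11.9 CPM with PBS and 8.27, 7.90 and 7.66 CPM with LRG1. It was 1.48-fold lower, with the groups apart (log2 fold change -0.56, SE 0.10, edgeR adjusted p = 6.78e-05). Sesn3, a known FOXO target in liver, had 39.3, 35.9 and 34.3 CPM with PBS and 49.4, 50.8 and 50.4 CPM with LRG1, 1.37-fold higher with the groups apart (log2 fold change 0.46, SE 0.058, edgeR adjusted p = 4.98e-07). Sesn2, induced by the integrated stress response, spread widely with PBS at 47.8, 39.7 and 53.8 CPM and had 45.8, 45.3 and 42.3 CPM with LRG1. It passed only without PBS replicate 2 (log2 fold change -0.19, adjusted p = 0.0188). The sum of the 3 genes per length was 20.6 ± 1.88 CPM per kb with PBS and 20.4 ± 0.580 with LRG1.

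Start regions are shown for Prkaa1 and Prkaa2 and for Sesn1 and Sesn3, pairs that moved in opposite directions, and for Pik3r1, the largest rise. The Akt1 and Akt2 pair, which did so too, is not shown. The sequences are RefSeq's 300-base windows around the annotated start on build GRCm38.p6, 5′ to 3′ on the gene's strand, and the first entry was taken where a gene has several. They lie at chr15:5143611-5143910 (+) for Prkaa1, chr4:105109849-105110148 (-) for Prkaa2, chr10:41810324-41810623 (+) for Sesn1, chr9:14276051-14276350 (+) for Sesn3 and chr13:101768168-101768467 (-) for Pik3r1. Capitals mark GGGCGG (the GC box), CCAAT, and GTAAACA (a core FOXO motif), each on either strand, and GC boxes may overlap each other.
Prkaa1: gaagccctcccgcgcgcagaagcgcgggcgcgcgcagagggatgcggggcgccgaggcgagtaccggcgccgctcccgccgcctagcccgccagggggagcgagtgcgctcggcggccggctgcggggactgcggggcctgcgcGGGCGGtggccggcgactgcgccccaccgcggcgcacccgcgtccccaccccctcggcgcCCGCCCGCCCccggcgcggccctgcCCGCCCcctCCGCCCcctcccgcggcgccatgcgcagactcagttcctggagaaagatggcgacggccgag
Prkaa2: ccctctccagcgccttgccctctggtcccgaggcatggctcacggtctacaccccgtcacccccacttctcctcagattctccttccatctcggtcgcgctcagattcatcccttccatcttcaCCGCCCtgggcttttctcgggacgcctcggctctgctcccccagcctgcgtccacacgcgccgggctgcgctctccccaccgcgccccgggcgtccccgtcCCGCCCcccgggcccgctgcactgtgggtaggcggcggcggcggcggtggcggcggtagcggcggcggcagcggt
Sesn1: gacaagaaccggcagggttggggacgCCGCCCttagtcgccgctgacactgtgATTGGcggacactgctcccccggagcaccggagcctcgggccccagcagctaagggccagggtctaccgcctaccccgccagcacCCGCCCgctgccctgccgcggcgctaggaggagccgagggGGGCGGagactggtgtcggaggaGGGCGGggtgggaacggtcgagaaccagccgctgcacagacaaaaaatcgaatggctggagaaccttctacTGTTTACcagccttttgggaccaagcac
Sesn3: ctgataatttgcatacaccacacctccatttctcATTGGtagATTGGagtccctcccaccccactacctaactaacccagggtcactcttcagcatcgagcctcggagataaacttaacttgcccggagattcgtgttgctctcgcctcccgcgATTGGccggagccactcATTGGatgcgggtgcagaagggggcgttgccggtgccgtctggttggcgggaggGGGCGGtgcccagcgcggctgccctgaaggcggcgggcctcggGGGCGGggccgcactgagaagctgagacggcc
Pik3r1: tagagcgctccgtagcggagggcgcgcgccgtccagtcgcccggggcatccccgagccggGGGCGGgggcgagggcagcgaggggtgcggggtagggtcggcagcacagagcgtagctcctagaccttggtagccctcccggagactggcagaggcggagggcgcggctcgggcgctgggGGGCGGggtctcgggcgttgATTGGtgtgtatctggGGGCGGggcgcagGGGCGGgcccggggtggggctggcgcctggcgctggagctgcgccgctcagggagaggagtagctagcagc

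Prkaa1 had 5 GC boxes and no CCAAT, and Prkaa2 2 GC boxes and no CCAAT, in windows of 82% and 72.7% G and C. Sesn3 had 4 CCAAT and 2 GC boxes, Sesn1 1 CCAAT, 4 GC boxes and 1 GTAAACA, and Pik3r1 1 CCAAT and 4 GC boxes. RefSeq windows were matched for 36 of the 40 components, with 49 entries. GGGCGG stood in 69.4% of those entries and in 35.7% of all 32851 windows of the table, CCAAT in 40.8% and 37.4%, and GTAAACA in 6.12% and 3.65%. The SMAD palindrome GTCTAGAC was in none of the 49 and in 0.213% of all windows. The windows of the table were not matched to those of the components for G and C content or expression, and the part of base composition was not tested. Such matches describe letters in a window and do not show binding.

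The 4 lists of other genes of these pathways were counted in the same fit, in which 51.4% of all tested genes were called. The lists were chosen with earlier results of these data known, so their shares are descriptions and no test against all genes. A difference of at least 1.5-fold, whether called or not, was seen in 32% of the PI3K list, 11.4% of the mTOR list, 32% of the AMPK list and 45.2% of the FOXO target list, and in 19% of all tested genes. Of 25 tested PI3K pathway genes 6 were higher, 11 lower and 8 did not pass, and their median log2 fold change was -0.10. Tbc1d1, a Rab regulator related to Tbc1d4, rose from 43.6 ± 1.27 to 84.5 ± 3.90 CPM (1.94-fold, log2 fold change 0.96, SE 0.051, edgeR adjusted p = 1.58e-13). Irs1, an adaptor of the insulin receptor, fell from 13.6 ± 0.536 to 2.89 ± 0.283 CPM, the AKT-related kinase gene Sgk2 from 10.7 ± 0.599 to 1.22 ± 0.405 CPM, and the receptor gene Insr from 203 ± 5.68 to 128 ± 2.47 CPM.

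Of 44 tested other mTOR pathway genes, 11 were higher and 9 lower, while 24 did not pass (median 0.00022). Ddit4, which inhibits mTORC1 through TSC, was 3.35-fold higher, while its relative Ddit4l fell from 26.4 ± 3.00 to 14.2 ± 1.52 CPM. Rragd, a Rag GTPase that recruits mTORC1 to lysosomes, was 2.61-fold lower, from 15.1 ± 0.641 to 5.80 ± 0.320 CPM. Ulk1, an autophagy kinase under mTORC1 and AMPK control, was 1.35-fold higher. The count of 11 dropped to 7 with DESeq2 and to 7 without LRG1 replicate 1.

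Of 25 tested other AMPK pathway genes, 8 were higher and 13 lower, while 4 did not pass (median -0.13). The AMPK-related kinase genes Nuak2 and Nuak1 rose from 12.2 ± 0.470 to 43.4 ± 3.52 CPM and from 10.2 ± 0.402 to 25.7 ± 0.768 CPM (3.54-fold and 2.53-fold, edgeR adjusted p = 1.85e-15 and 1.11e-12). Sik1, another kinase activated by LKB1, was 1.57-fold lower. Acacb, the acetyl-CoA carboxylase that AMPK inhibits to free fatty acid oxidation, was 4.86-fold lower.

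The FOXO target list was split. Of 31 tested genes, 5 of which are components, 11 were higher and 15 lower, while 5 did not pass, with a median of -0.13. Gadd45a, a growth arrest gene, rose from 72.3 ± 0.970 to 198 ± 3.22 CPM (2.74-fold), and Fbxo32, a ubiquitin ligase of muscle atrophy, from 11.5 ± 0.321 to 35.7 ± 2.41 CPM (3.10-fold). Cat, which encodes catalase, was 1.82-fold lower and Igfbp1 2.06-fold lower.

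**Figure D5:**
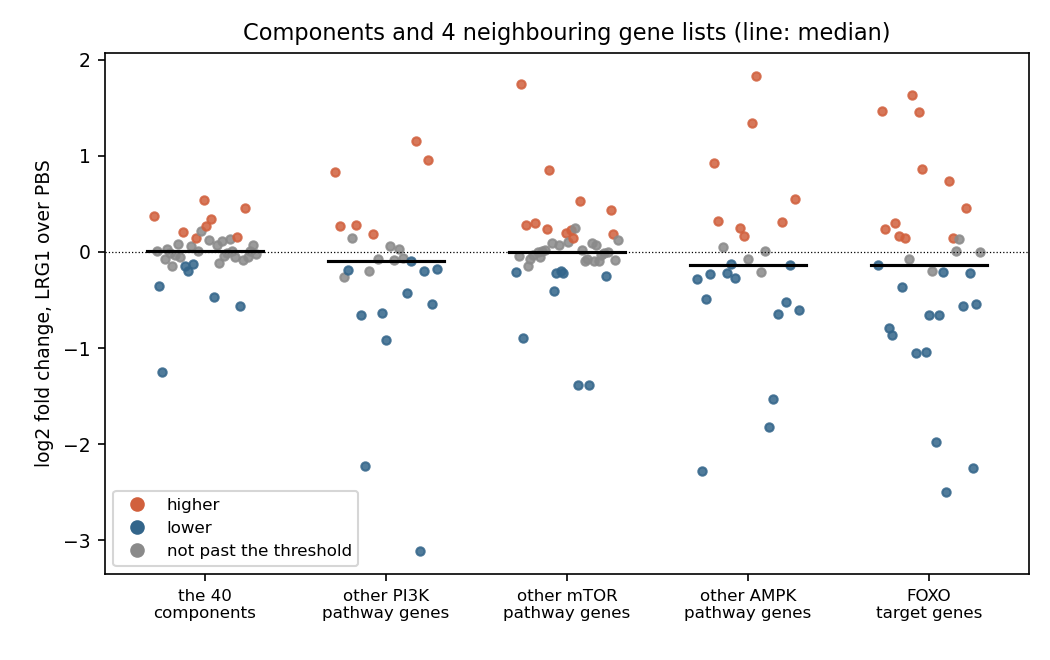
Log2 fold change, LRG1 over PBS, of the 40 components and of the tested genes of 4 other lists, 1 point per gene, coloured by call, with the median as a line. The medians lie between -0.13 and 0.0057. Deptor is the only component beyond 1 in either direction.

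In the GENCODE M21 annotation, exons of 15 of the 40 components overlap a gene on the opposite strand. Among the called ones these are Pik3r2, Pik3c2a, Rptor, Mlst8 and Deptor. Whether the counting used the strand is not given in the sources used here, so their counts may include reads of the partner, which for Deptor is the transcript Gm9920.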

How the data were processed

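RNA was measured in 6 libraries, 3 per group, made from about 500 ng of total RNA with a poly(A)-selecting, strand-marking kit and read from 1 end at 50 nt. Each deposited file lists unnormalized counts by gene symbol. Build mm9, bcl2fastq, TopHat2 and HTSeq are named, per the submitters' processing notes. Not given in the sources used are the strand setting, the annotation and tool versions. The 5 HTSeq summary rows were left out. Reads in no gene were 8.96 to 10.3% of the reads in genes, ambiguous or in no gene, and not unique alignments 58.2 to 59.3% of all row totals.

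Counts were filtered with filterByExpr (minimum count 10), scaled by TMM and tested with edgeR 4.0.16 (glmQLFit, glmQLFTest, R 4.3.3) on treatment, with adjustment over 12301 genes and a threshold of 0.05. SE values come from the F statistic. CPM values use TMM-scaled library sizes. Lengths and GC are those of the longest coding transcript in GENCODE M21 (GRCm38), matched by symbol, so levels per length are approximate.

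The members and the other lists were chosen with earlier results of these data known. Of each other list, the 4 called genes with the smallest p are named. The rule also names 3 genes outright, of which Ddit4 and Igfbp1 are among those 4 and the other is not reported here. Older symbols were matched through RefSeq synonyms, and 2 of 47 mTOR list names found no match. Alternatives were other scalings and filters, DESeq2 1.42.0, limma-voom (limma 3.58.1), a replicate block, removal of GC and length trends (mgcv 1.9.3), and leaving out each library. The GC and length trends were fitted to the log2 fold changes over tested genes and taken out of the LRG1 libraries. Their removal can therefore also take out treatment differences that follow GC or length. The test was first tested on simulated data, where unchanged genes made up a larger share of calls than the threshold and small changes were missed more often than large ones. Far fewer genes were changed in the simulation than were called in the data, so that share need not apply here.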

Additional observations from a re-analysis of the deposited data

How the results depend on the processing

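The counts of components called stayed between 7 and 9 higher and between 5 and 8 lower under all alternatives except 1. With GC and length trends removed, 6 were higher and 11 lower, and 12 of the 15 original calls remained. Leaving out 1 library each gave 7 to 9 higher and 5 to 8 lower. The count of other mTOR pathway genes that were higher, 11, was 7 with DESeq2 and ran from 7 to 10 when 1 library was left out. The cause was not tested. No called component changed direction in any alternative. Of the 25 components not past the threshold, 8 passed under at least 1 alternative. Replicate numbers are shared between the groups, and deviations of same-numbered libraries from their group means correlated at -0.123, -0.0142 and -0.119. Deviations within groups of 3 are tied to each other, so these values cannot show whether same-numbered libraries share an origin. With the replicate block 8 components were higher and 7 lower, the same 15 as without it, and 5890 of all tested genes were called instead of 6317. Another scaling moved the median log2 fold change of all genes to at most 0.0253. The alternative for complex sums and ratios, chosen after seeing the data, moved none by more than the replicate SD. That bound is loose and does not show that they are stable. With 1 library left out, regulatory to catalytic PI3K mRNA with LRG1 ran from 1.28 to 1.31 times its PBS value. For Deptor to Mtor the range was 0.454 to 0.493, and for Rptor to Rictor 0.964 to 1.07. Depth limits Pik3cd, with 7 to 20 reads per library.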

Other observations

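Among the other pathway genes, the partners of LKB1 also differed, in part in opposite directions. These genes were chosen after their values were seen. Strada, a pseudokinase that activates LKB1, had 6.73, 6.79 and 7.32 CPM in the PBS libraries against 9.61, 11.4 and 9.47 CPM after LRG1 (log2 fold change 0.55, SE 0.11, edgeR adjusted p = 0.000253). Its relative Stradb had 45.8, 46.9 and 45.4 CPM in the PBS libraries against 32.6, 27.6 and 30.8 CPM after LRG1 (log2 fold change -0.60, SE 0.063, edgeR adjusted p = 2.29e-08). Cab39, the scaffold of the LKB1 complex, was 1.40-fold lower, from 262 ± 5.45 to 187 ± 5.34 CPM, and Cab39l 1.17-fold lower. Camkk2, the calcium-dependent kinase that can activate AMPK in place of LKB1, had 11.5, 13.1 and 10.5 CPM in the PBS libraries against 22.5, 21.4 and 22.6 CPM after LRG1, 1.89-fold higher. All groups named here were apart.

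The SGK kinases, which resemble AKT and are activated through mTORC2 and PDK1, did not move together either. Sgk1 rose 2.22-fold, from 15.7 ± 0.791 to 35.0 ± 1.11 CPM (edgeR adjusted p = 1.59e-12), Sgk3 was 1.15-fold lower, and Sgk2 fell as given above. Of the amino acid sensing branch, Castor1, listed under its older symbol Gatsl3, was 1.81-fold higher. Depdc5 and Nprl3 of the GATOR1 complex were 1.21-fold and 1.17-fold higher, and Nprl2 of the same complex did not pass (edgeR adjusted p = 0.439). Mios and Castor2, the latter listed as Gatsl2, were higher too (edgeR adjusted p = 0.0224 and 0.0472), with groups overlapping for Castor2. Rragd was lower, as given above, and so was Kptn of the KICSTOR complex (1.33-fold, edgeR adjusted p = 0.000585). The Ragulator genes Lamtor2 (1.16-fold, 0.0330, groups overlapping) and Lamtor4 (1.15-fold, 0.00926), the latter listed as 0910001L09Rik, were also lower. Lamtor1, Lamtor3, Lamtor5, Rraga, Rragc, Wdr24, Wdr59, Seh1l, Sec13, Slc38a9, Flcn, Fnip1 and Fnip2 did not pass. The genes of this paragraph were also chosen after their values were seen.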
